A study of Homo sapiens with 4 samples.

Results

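To describe how the miR-320 family is represented in extracellular vesicles (EVs) of prostate cancer (PCa) cells, the rows of hsa-miR-320a, hsa-miR-320b, hsa-miR-320c, hsa-miR-320d and hsa-miR-320e (miR-320a to miR-320e) were taken from the table of small RNA counts. These are 5 of the 2588 mature miRNA names in the table, and the rule that picks them uses the names and not the counts. The EVs came from PC3, an established PCa cell line derived from a bone metastasis, grown in serum-supplemented medium without any treatment. Before EV collection the cells were given medium with serum depleted of exosomes, and vesicles were purified with an exoEasy kit, as the study's methods say, and on qEV size exclusion columns. There were 2 biological replicates of small RNA and 2 of total RNA, and all came from this single line and condition, so no conditions were compared. Because the small RNA table heads its value columns with identical names, these libraries are called first and second and have no replicate number. RNA of the PC3 cells themselves and of normal prostate cells was not analysed here, so levels in the EVs cannot be set against either.

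miRNAs are short RNAs that guide Argonaute proteins to partly matching mRNAs, mainly through the seed, bases 2 to 8 of the mature strand. Most miRNA precursors are cut out of a longer transcript by the nuclear enzyme Drosha with its partner DGCR8, leave the nucleus with exportin 5 and are cut again by Dicer. The main precursor of the miR-320 family is a known exception, because its hairpin begins at the transcription start itself. It carries a methylguanosine cap in place of a Drosha cut, is exported by exportin 1 with the adaptor PHAX, and is still cut by Dicer. The capped 5′ strand is a poor substrate for Argonaute, so the mature miRNA is the 3′ strand.

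The mature sequences show how similar the family members are, which matters for how reads can be shared out among their names. The RefSeq reference used here (GRCh38.p14) gave mature sequences for 4 of the 5 members, miR-320b to miR-320e. They are given 5′ to 3′ with the seed in capitals. It had no entry for miR-320a, so the sequence comparisons leave out the most abundant member. A further miRNA of the table with the seed of miR-320b, miR-4429, is shown with them.
miR-320b: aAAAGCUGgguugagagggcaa
miR-320c: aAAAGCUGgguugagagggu
miR-320d: aAAAGCUGgguugagagga
miR-320e: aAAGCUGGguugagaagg
miR-4429: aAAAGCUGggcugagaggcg

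miR-320b, miR-320c, miR-320d and miR-4429 have a common seed, whereas miR-320e lacks the first base of the others and its seed is moved by 1 base. The mature forms are 22, 20, 19 and 18 bases long from miR-320b to miR-320e. Counted from the 5′ end of miR-320b, miR-320c differs by C20U over its 20 bases and miR-320d by G19A over its 19. Set against miR-320b from its second base, miR-320e differs by G17A, while miR-4429 differs by U11C, G19C and C20G. The first 18 bases of miR-320b, miR-320c and miR-320d are identical, so a read has to reach base 19 to tell miR-320d from the others and base 20 to tell miR-320b from miR-320c. Of the 2223 names of the table with a sequence of at least 18 bases, 83 (3.73%) shared their first 18 bases with another name. Outside the family and miR-4429, the nearest name to miR-320b was 8 edits away, and miR-4429 itself was 4 edits away.

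The hairpins of the 2 rarer members that were detected are shown next, since each of these mature forms can come from 2 loci that the mature counts cannot separate. They are RefSeq sequences on GRCh38.p14, given 5′ to 3′ on the strand of the gene, with the mature strand in capitals. MIR320B1 lies at chr1:116671746-116671817 on the plus strand, MIR320B2 at chr1:224257040-224257110 on the minus strand, MIR320C1 at chr18:21683518-21683589 and MIR320C2 at chr18:24321675-24321746, both on the plus strand.
MIR320B1: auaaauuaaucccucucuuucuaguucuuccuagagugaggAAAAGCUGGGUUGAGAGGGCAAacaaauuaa
MIR320B2: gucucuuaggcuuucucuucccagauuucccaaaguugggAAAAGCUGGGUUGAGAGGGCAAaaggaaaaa
MIR320C1: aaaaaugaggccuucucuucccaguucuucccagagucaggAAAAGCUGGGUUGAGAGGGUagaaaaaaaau
MIR320C2: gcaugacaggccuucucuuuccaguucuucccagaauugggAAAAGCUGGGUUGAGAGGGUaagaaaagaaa

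In all 4 hairpins the mature strand lies towards the 3′ end, starting at base 41 or 42 of 71 or 72. For each of them the reference lists 1 mature strand, as it does for 781 of its 1560 human hairpins (50.1%). The rows taken for the family hold no separate name for the opposite arm, so they cannot show its amount. miR-320b and miR-320c are rich in purines. A and G make up 77.3% of the bases of miR-320b and 75.0% of miR-320c, against a median of 50.0% over the 2281 names with a sequence, and 95.1% and 93.6% of those names had a lower purine share. Neither the motif GGAG, which hnRNPA2B1 is known to bind in miRNAs sorted to exosomes, nor GGCU, known for SYNCRIP, occurs in miR-320b to miR-320e. GGAG is found in 15.7% and GGCU in 12.4% of the names with a sequence, read on the miRNA strand only. These matches describe letters and not binding.

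miR-320a carried nearly all reads of the family, miR-320b and miR-320c were present at a small fraction of its level, and no read was counted on miR-320d or miR-320e. The counts are raw reads per miRNA name and were scaled to CPM, counts in a library total of 1000000 miRNA counts. The totals were 154185 counts (first library) and 113185 counts (second library), so 1 read is 6.49 CPM and 8.84 CPM. The family as a whole had 1439 reads in the first library, equal to 0.933% of the miRNA counts (95% Wilson interval 0.887 to 0.983%), and 1011 in the second, or 0.893% (0.840 to 0.950%). The mean was 0.913% ± 0.0283 (SD, n = 2). The share depended on the total it was set against. Without the 10 most abundant names it was 4.99%, and without 5 abundant names that may come from other RNA, which was not tested, 2.70%. Intervals and exact tests between libraries here cover counting error only, since amplified reads are not independent molecules.

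hsa-miR-320a had 1402 reads (first library) and 988 reads (second library), equal to 9093 and 8729 CPM. Its mean was 8911 CPM ± 257 (SD, n = 2), and the per-library intervals of its share, 0.863 to 0.958% and 0.820 to 0.929%, overlapped. By mean CPM it ranked 17 of the 765 names that had any read, and its rank within the libraries was 17 and 15. The 16 names above it held 87.6% of the miRNA counts.

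hsa-miR-320b had 28 and 18 reads, equal to 182 CPM (interval 126 to 262) and 159 CPM (101 to 251). The mean was 170.3 CPM ± 16.0 (SD, n = 2), rank 112. hsa-miR-320c had 9 and 5 reads, equal to 58.4 CPM (interval 30.7 to 111) and 44.2 CPM (18.9 to 103). With a mean of 51.3 CPM ± 10.0 (SD, n = 2) it ranked 180, close to the median of 39.9 CPM over the 386 miRNAs with a read in both libraries. For both, the intervals of the 2 libraries overlapped.

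For hsa-miR-320d and hsa-miR-320e, 0 of 154185 and 0 of 113185 counts allow a share of up to 0.00195% and 0.00265%, taken as 3 reads, or 19.5 and 26.5 CPM. They were thus not detectable at this depth, which does not show that they were absent. Their short mature forms end at bases 19 and 18, and how the mapping treated reads that fit more than 1 name is not given in the sources used here. Whether this had a part in the counts of 0 was not tested.

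**Figure D1:**
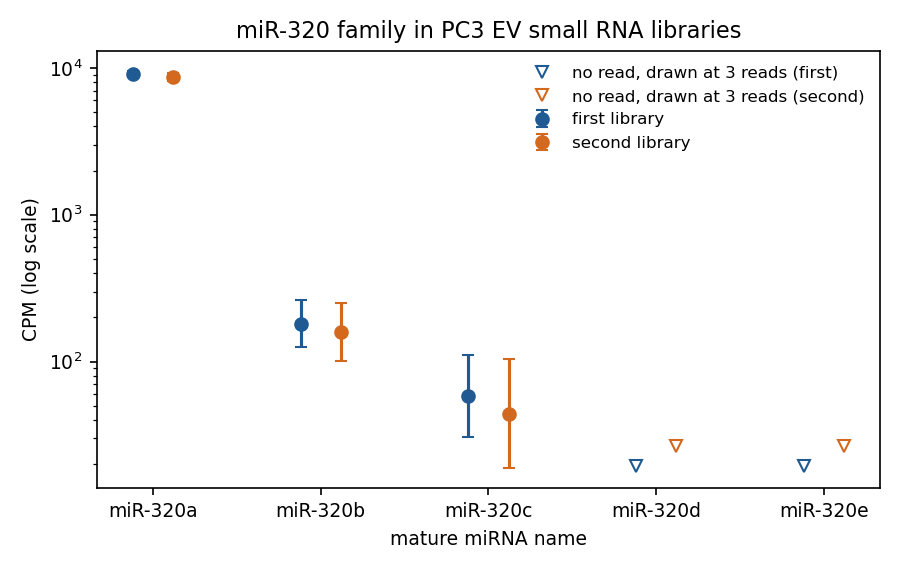
CPM (log scale) of the 5 members in the first (blue) and second (orange) small RNA library, with 95% Wilson intervals as bars, which are smaller than the points for miR-320a. miR-320a lies at 9093 and 8729 CPM, miR-320b at 182 and 159 CPM and miR-320c at 58.4 and 44.2 CPM. Open triangles mark miR-320d and miR-320e, without a read, at the level of 3 reads.

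The order of the detected members was the same in both libraries. miR-320a was 50.1 times as high as miR-320b in the first library (interval 34.5 to 72.6) and 54.9 times in the second (34.6 to 87.1). Against miR-320c the ratio was 156 (81.8 to 297) and 198 (84.2 to 464). miR-320b was 3.11 times as high as miR-320c in the first library (1.49 to 6.48) and 3.60 times in the second (1.39 to 9.35), a gap larger than the SD of either. For miR-320d and miR-320e, without a read, only the level of 3 reads could be used. miR-320a was 467 times that level in the first library and 329 times in the second. These miRNAs differ by a few bases, so a small share of misassigned reads of miR-320a would weigh on the counts of miR-320b and miR-320c. Reads of the rarer members may also have been counted on miR-320a, which would raise these ratios. Neither was tested.

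To ask whether the family was split in the same way in both libraries, each detected member was set against the rest of the family (Fisher's exact test, two-sided). miR-320a held 97.4% of the family reads in the first library (interval 96.5 to 98.1%) and 97.7% in the second (96.6 to 98.5%). miR-320b held 1.95% (1.35 to 2.80%) and 1.78% (1.13 to 2.80%), and miR-320c 0.625% (0.329 to 1.18%) and 0.495% (0.211 to 1.15%). No difference between the libraries was detected for any of the 3, each with an adjusted exact p of 0.880 after Benjamini-Hochberg correction. Without miR-320a, miR-320b took 75.7% of 37 reads in the first library and 78.3% of 23 in the second, with a Fisher's exact p of 1.0. These tests compare 2 libraries and not conditions.

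Detection was then set beside the table as a whole. At least 1 read in both libraries was found for 3 of the 5 members, against 14.9% of all 2588 names. At least 10 reads in both were found for 2 of the 5, miR-320a and miR-320b, against 5.56% of all names. With 5 members that share most of their bases these counts are a description only.

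**Figure D2:**
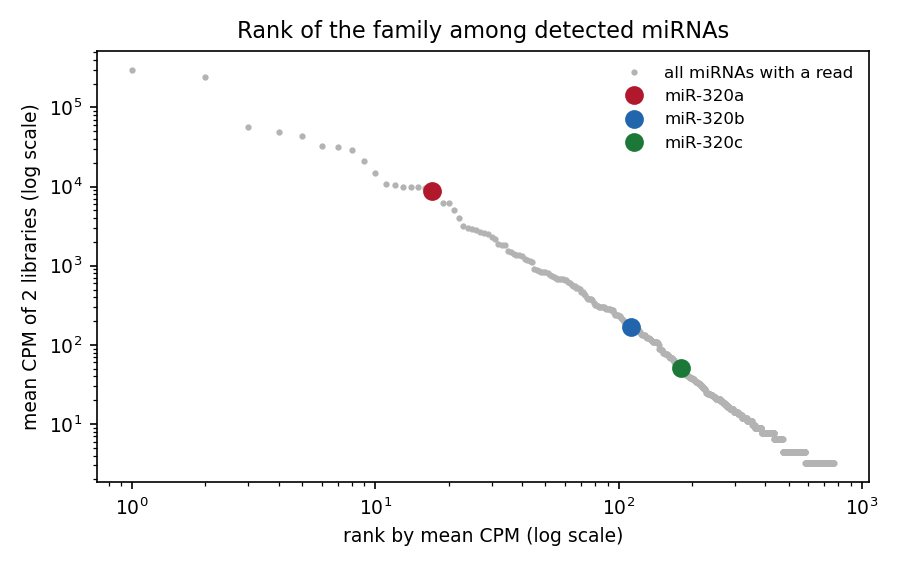
Mean CPM of the 2 libraries (log scale) against rank (log scale) for the 765 names that had any read (grey). miR-320a (red) sits at rank 17 on the upper part of the curve, miR-320b (blue) at rank 112 and miR-320c (green) at rank 180, near the median of the miRNAs read in both libraries.

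Around each detected member in the order of mean CPM there were miRNAs whose mean differed from its own by less than the larger SD of the pair. Next above miR-320a was miR-378a-3p with 9531 CPM ± 922 (SD, n = 2), from 1570 and 1005 reads. Next below was let-7i-5p, of the let-7 family of differentiation regulators, with 8508 CPM ± 762 (SD, n = 2), from 1395 and 902 reads. Both lay on the same side of miR-320a in each library, but the differences of the means were smaller than the larger SD. miR-320b lay between miR-1269a at 179 CPM ± 3.46 and let-7d-3p at 166 CPM ± 22.2, and these 3 miRNAs had the same 28 reads in the first library. miR-320c lay between miR-3607-3p at 51.6 CPM ± 27.0 and miR-486-5p at 50.4 CPM ± 16.2, and the order of the 3 changed between the libraries. None of these 6 differences exceeded the larger SD of its pair. Those of miR-320a, 620 and 403 CPM, exceeded its own SD of 257 CPM.

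Since miRNAs with the same seed are taken to bind the same sites, levels were also summed over names with a common seed. The 5 members and miR-4429 were counted as 1 group, in which the members were placed by name and not by seed. miR-320a had no sequence in the reference used, and the seed of miR-320e is moved by 1 base. Other names without a sequence stood alone. Of the 765 miRNAs with a read, 652 had a sequence. miR-4429 added 0 and 1 reads. The group had 9333 and 8941 CPM, a mean of 9137 CPM ± 277 (SD, n = 2), and ranked 15 of 683 groups with a read.

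The groups above by mean were led by miR-378a-3p with 9780 CPM ± 936, miR-191-5p with 10008 CPM ± 4045 and miR-151a-3p with 10484 CPM ± 1379.6. Of these, the first 2 differed from the miR-320 group by less than their own SD. The group of miR-191-5p, with 12868 and 7148 CPM, was above the miR-320 group in the first library and below it in the second. miR-151a-3p was higher than the miR-320 group in both libraries, with 9508 and 11459 CPM, and the difference of the means was again smaller than its SD. Next below was miR-183-5p with 6197 CPM ± 4.91, a gap far larger than either SD. The groups led by miR-23a-3p and miR-26a-5p followed with 5771 CPM ± 2726 and 4658 CPM ± 1952.

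Scaled to the library totals, miR-320a had nearly the same CPM in both libraries. Its log2 ratio of CPM, second over first library, was -0.06, and that of miR-320b was -0.19. Among 144 names that reached 10 reads in each library, 14 had a smaller absolute log2 ratio than miR-320a and 32 a smaller one than miR-320b, with a median absolute ratio of 0.43. The ratios of these 144 were not centred on 0, so this ranking measures closeness to equal CPM and not to the typical miRNA. Their median was -0.30, and 103 of them (71.5%) were lower in the second library. When each of the 765 names was tested between the libraries (Fisher's exact test, two-sided, Benjamini-Hochberg adjusted), 39 (5.1%) differed between the libraries, and 38 of the 144 (26.4%) did. No member was among them, with an adjusted p of 0.958 for miR-320a.

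For the family as a whole, nearly all of it miR-320a, the log2 ratio was -0.06, with a two-sided Fisher's exact p of 0.286. This ratio depended on what the counts were scaled to. With edgeR TMM scaling it was 0.11 (exact binomial p = 0.0689), and with totals that left out the 10 most abundant miRNAs it was 0.24 (exact binomial p = 5.48e-05). The share of the family was thus nearly equal in both libraries, and relative to the miRNAs outside the 10 most abundant its value was higher in the second, by a test that covers counting error alone. Direction and size here describe the spread between replicates of the same condition.

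**Figure D3:**
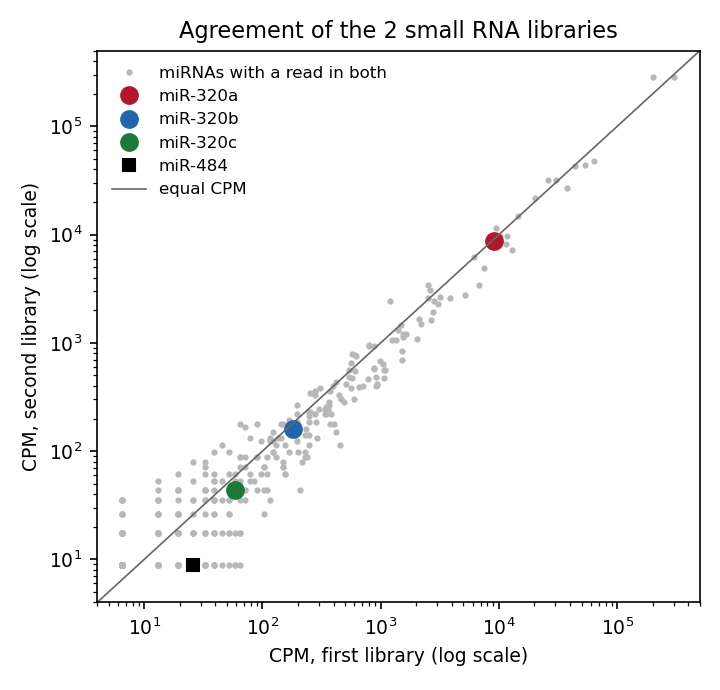
CPM in the second against the first small RNA library (both log scale) for the 386 miRNAs with a read in both (grey), with the line of equal CPM. miR-320a (red) and miR-320b (blue) lie close to the line, and miR-320c (green), with 9 and 5 reads, lies below it. miR-484 (black square) lies near the lower edge with 4 and 1 reads.

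To set the family beside other miRNAs described as bypassing Drosha, a list of 21 names was examined. It holds miR-484, whose precursor is also capped, and both arms of miR-877, miR-1224 to miR-1229 and miR-1236 to miR-1238, which lie in short introns and have been described as mirtrons, hairpins made by splicing. For miR-1225 and miR-1228 a route that needs Drosha and no splicing has also been described. Summed over the list there were 13 and 7 reads, against 1439 and 1011 for the miR-320 family, which was 111 and 144 times as many. These ratios hold for the listed names only, since the list was drawn from general knowledge and is not a full catalogue. Without miR-1225 and miR-1228, a choice made after seeing the data, the list had 12 and 6 reads. miR-484 had 4 and 1 reads, on average 17.4 CPM ± 12.1 (SD, n = 2). miR-877-5p had the same counts.

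At least 1 read in both libraries was found for 5 of the 21 names, beside 14.9% of all names in the table. miR-1224-5p, miR-1225-3p and miR-1226-3p had 1 read in each library. miR-1229-5p had 0 and 2 reads, and miR-877-3p and miR-1237-3p had 1 and 0. The other 13 names had no read in either library. The level of these miRNAs in the cells was not analysed here.

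The total RNA libraries of PC3 EVs were examined for the precursor loci. The labels of both assays use the codes EX1 and EX2, but none says that these mean the same EV preparations. The total RNA libraries held 489170 reads counted on genes in replicate 1 and 475942 in replicate 2. These were 2.50% and 2.16% of the reads in the files. As a check of the label, the epithelial keratin gene KRT8 had 966 and 1088 reads and KRT18 had 94 and 87. EPCAM, also epithelial, had 2 and 26 reads and the mesenchymal VIM 130 and 87, while KLK3, which PC3 cells are known to lack, had none. The markers of other cell types, KRT5, PTPRC, ALB and HBB, had none either. Only 42.3% of all 19629 protein-coding genes had a read in either replicate. The lack of reads on KLK3 and on these markers therefore says little about the label. GENCODE release 44 on GRCh38, the build named by the labels, lists 8 genes of the family, and all 8 were in the table.

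No read was counted on any of these 8 genes in either replicate, which allows up to 6.13 CPM in replicate 1 and 6.30 CPM in replicate 2. Of all 1566 miRNA genes matched in the table, 34 (2.17%) had a read in either replicate. A count of 0 on a hairpin gene is therefore the usual value in these libraries and says little about the precursor. MIR320A lies on chromosome 8, minus strand, outside other annotated genes, as do MIR320B1, MIR320D1 (chr13:40727828-40727875) and MIR320D2 (chrX:140926172-140926219), both on the minus strand.

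The other 4 loci lie in introns of protein-coding genes. MIR320B2 is on the same strand as NVL, a gene for a nuclear ATPase of ribosome biogenesis, which had 4 and 10 reads. MIR320E (chr19:46709293-46709345, minus strand) is on the same strand as PRKD2, a protein kinase gene, which had no read. MIR320C1 and MIR320C2 lie opposite to ABHD3, with 6 and 0 reads, and to OSBPL1A, with 0 and 20 reads. Of the 4 genes, only NVL had a read in both replicates, beside 21.9% of all protein-coding genes.

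The mRNAs of the proteins that make and carry miRNAs were looked at in the total RNA libraries. Of 15 genes on the list, 8 had at least 1 read in both replicates, against 21.9% of all 19629 protein-coding genes. For the export of capped precursors, XPO1, which encodes exportin 1, had 48 and 20 reads, 70.1 CPM ± 39.7 (SD, n = 2). PHAX had 24 and 12 reads, 37.1 CPM ± 16.9, and RAN, the GTPase that drives nuclear export, had 34 and 21, 56.8 CPM ± 17.9. All 3 had more reads in replicate 1 than in replicate 2.

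The cap-binding genes were not seen in both replicates, with 0 and 22 reads on NCBP1 and none on NCBP2. XPO5, which encodes exportin 5 of the common route, had 4 reads in each replicate. Of the Drosha complex, DGCR8 had 6 and 12 reads, and DROSHA had 51 reads in replicate 1 and 0 in replicate 2. DICER1, which the miR-320 precursor still needs, had 8 and 0 reads, its partner gene TARBP2 14 and 0, and PRKRA 12 and 1.

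Among the Argonaute genes, AGO2, which encodes the member with slicing activity, had 27 and 33 reads, 62.3 CPM ± 10.0 (SD, n = 2). AGO1 had 24 and 22 reads, 47.6 CPM ± 2.01. AGO3 had 0 and 11 reads and AGO4 24 and 0. In all, 6 of the 15 genes had reads in 1 replicate only, from 8 reads on DICER1 to 51 on DROSHA, against 20.3% of all protein-coding genes. A read in either replicate was found for 14, against 42.3%, and at least 10 reads in both for 5, against 11.6%. The genes differ in length and their levels were not compared with each other. The strand setting of the counting is not given in the sources used here, so reads of overlapping antisense genes cannot be told apart from those of the genes named. mRNA in EVs does not measure the protein or its activity in the cell.

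**Figure D4:**
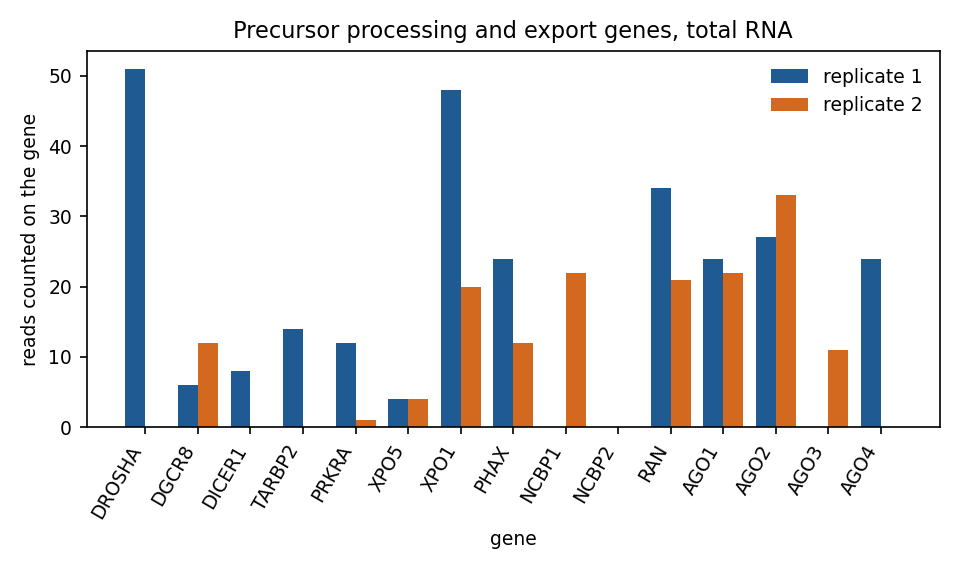
Reads counted on the 15 genes for miRNA precursor processing, export and loading in total RNA replicate 1 (blue) and replicate 2 (orange). XPO1, PHAX, RAN, AGO1 and AGO2 have at least 10 reads in both replicates, whereas DROSHA has 51 reads in replicate 1 and 0 in replicate 2.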

How the data were processed

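Small RNA and total RNA of PC3 EVs were each sequenced in 2 biological replicates. For the small RNA, the authors used Cutadapt for trimming and SHRiMP for mapping against miRBase names, and the deposited values are raw counts for each mature name. The total RNA was deposited as raw HTSeq counts per gene on GRCh38. The title of total RNA replicate 2 carries the code EX1, as that of replicate 1 does, while its description points to EX2, and the description was followed. Versions, the strand setting and the treatment of reads with several matches are not given in the sources used here. Reads set aside by HTSeq (97.5% and 97.8%) stayed out of the totals.

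Counts were scaled to CPM. Library totals of 154185 and 113185 miRNA counts limit the precision, and the smallest share shown was taken as 3 reads. Intervals are 95% Wilson intervals. Libraries were compared by Fisher's exact test, two-sided, with p-values adjusted by Benjamini-Hochberg over 3 members or 765 miRNAs, a procedure tested on simulated data. No test between conditions applies. An exact binomial test was used where totals were rescaled with edgeR 4.0.16 or DESeq2 1.42.0 (R 4.3.3). Other values came from Python 3.11.15 (scipy 1.17.1, numpy 2.4.6, pandas 2.3.3) and plots from matplotlib 3.10.9. Sequences were matched by name to a RefSeq reference that covered 2281 of 2588 names and had no entry for miR-320a. Genes were matched by Ensembl identifier to GENCODE release 44, which covered 56948 of 58051. The miRNAs named are the members, names with a member's seed, the neighbours in rank, the neighbouring seed groups and the 2 gene lists. The family and the lists were picked with earlier results of these data known, although the rule for members uses names alone. Alternatives were other denominators, scalings, count minimums and single libraries.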

Additional observations from a re-analysis of the deposited data

How the results depend on the processing

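No paired analysis was possible because neither assay has groups to pair, and the small RNA columns hold no replicate number.

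The share of the family, 0.913%, rests on its denominator and on miR-320a. It was 4.99% of the counts without the 10 most abundant miRNAs and 2.70% without 5 abundant names that may come from other RNA (miR-1246, miR-3135b, miR-3182, miR-4448 and miR-7641), as these hold most of the counts. It was 0.0222% without miR-320a, an alternative chosen after seeing the data. With a single library it was from 0.893 to 0.933%. The log2 ratio of the family between the libraries changed sign with edgeR TMM (0.11, exact binomial p = 0.0689), DESeq2 size factors (0.076, exact binomial p = 0.201) and totals without the 10 most abundant miRNAs (0.24, exact binomial p = 5.48e-05). The difference in the share of miR-320b between the libraries turned from -0.165 to 2.59 percentage points without miR-320a (Fisher's exact p = 1.0). The rank of the seed group was 14 or 15 with a single library. With a read in either replicate, 14 of the processing and export genes were found, with at least 10 reads in both 5, and with a single replicate, chosen after seeing the data, from 10 to 12. The mean of miR-320a was 8916 CPM with edgeR TMM and 8913 CPM with DESeq2 size factors. In each scaling the factors of the 2 libraries offset each other, so this mean could hardly move. With a single library the level of miR-320a was 8729 or 9093 CPM. The members identified were 3 under every alternative except at least 10 reads in both, with 2. Grouping the family by seed alone was not run. The depth limits statements on miR-320c, miR-320d and miR-320e.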
